A study of Mus musculus with 6 samples.

Results

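Antigen presentation genes are described here by 9 members, which were taken by symbol from the 11768 genes listed in a quadriceps RNA sequencing table. They are the class II chain genes H2-Aa, H2-Ab1 and H2-Eb1 with the invariant chain gene Cd74, the class I heavy chain genes H2-K1 and H2-D1 with their light chain gene B2m, and the peptide loading genes Tap1 and Tapbp. All 9 were found. The libraries came from quadriceps of mice on normal chow, 3 labelled Control f/f and 3 labelled mDrp1HET, a heterozygous loss of Drp1 (gene Dnm1l) restricted to muscle. The library titles carry the letters mck, which the labels do not explain, and no label used here names the promoter that drives the recombinase. The strain, the sex and the age of the mice are not given in the sources used here.

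MHC molecules display peptides to T cells. Class I molecules sit on almost every nucleated cell, carry peptides made by the proteasome and need B2m to reach the surface, after the transporter Tap1/Tap2 has moved the peptides into the endoplasmic reticulum and tapasin, the product of Tapbp, has bridged transporter and heavy chain. Class II molecules are made mainly by macrophages, dendritic cells and B cells, where Cd74 guards the peptide groove until the molecule reaches endosomes. Resting muscle fibres carry little class I and normally no class II, so in a piece of muscle class II transcripts are usually read as those of resident immune cells.

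Expression was measured as log2 CPM, the log2 of reads scaled to the same total in every library. Read totals per column ranged from 10394761 to 64728022. The columns of Control replicate 1 and mDrp1HET replicate 3 differed by less than the sampling noise (chi-square 0.00367 per gene, against 52.8 to 253 for the other 14 pairs). They hold the same library and count as 1 sample, called the shared library below, whose group is not known. The comparison of all 6 columns, called the labelled comparison, has this library on both sides, so its fold changes are those of the remaining libraries drawn toward 0. The 4-library comparison sets Control replicates 2 and 3 against mDrp1HET replicates 1 and 2. The labels do not say that libraries came from separate animals, and the p-values speak only for the spread among the libraries at hand. Dnm1l was 6.95 and 6.87 log2 CPM in Control replicates 2 and 3, 7.30 and 6.73 in mDrp1HET replicates 1 and 2 and 6.69 in the shared library, and the 4-library log2 fold change was 0.11 (interval of 95% from -0.40 to 0.62), so a fall of the targeted transcript was not detectable. Its sign turned with median centring (-0.06), quantile normalization (-0.01) and removal of the GC trend (-0.15).

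The start regions of 4 members are shown because promoters of these gene classes are known for the elements named next and because H2-K1 and H2-D1, whose fold changes were nearly equal, are close copies. Each run is from 250 bases before to 50 bases after the annotated start, from RefSeq on GRCm38.p6. Class II promoters hold an X2 element related to the cyclic AMP response element, whose core TGACG was searched, and a Y box, an inverted CCAAT. Class I promoters hold an NF-kB element (searched as GGGNNTTCC) beside an interferon response element (searched as the IRF core AANNGAAA), followed by a TGACG core and CCAAT boxes. Capitals mark every match to these 4 motifs on either strand. Promoter entries of 7 of the 9 members were searched. H2-Ab1 had no entry, and Cd74 was left out of the search.

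The first pair shows the class II genes H2-Aa (chr17:34287774-34288073, minus strand) and H2-Eb1 (chr17:34305617-34305916, plus strand). In the H2-Aa window the palindrome made of 2 overlapping TGACG matches begins 74 bases upstream of the start, and the inverted CCAAT begins 48 bases upstream. In H2-Eb1 the inverted CCAAT begins 59 bases upstream, and no TGACG was matched in the window. H2-Aa also held an NF-kB core and an IRF core farther upstream.
H2-Aa: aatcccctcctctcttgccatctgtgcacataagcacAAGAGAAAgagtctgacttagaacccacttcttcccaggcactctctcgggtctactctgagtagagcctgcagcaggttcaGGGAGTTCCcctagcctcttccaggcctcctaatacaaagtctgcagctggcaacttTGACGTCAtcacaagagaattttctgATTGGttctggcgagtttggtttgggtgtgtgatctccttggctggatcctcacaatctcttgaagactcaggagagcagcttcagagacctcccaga
H2-Eb1: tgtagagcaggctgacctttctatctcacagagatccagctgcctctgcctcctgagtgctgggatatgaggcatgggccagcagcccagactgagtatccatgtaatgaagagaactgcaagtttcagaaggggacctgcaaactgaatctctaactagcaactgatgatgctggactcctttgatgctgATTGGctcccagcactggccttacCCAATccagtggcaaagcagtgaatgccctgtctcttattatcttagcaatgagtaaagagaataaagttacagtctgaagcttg

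The second pair shows the class I genes H2-K1 (chr17:34000298-34000597, minus strand) and H2-D1 (chr17:35262844-35263143, plus strand). Their windows aligned over 239 bases, of which 211 (88.3%) were identical. The same order of matches stood in both. The NF-kB core began 111 bases upstream in H2-K1 and 171 bases upstream in H2-D1, followed by the IRF core, TGACG and both CCAAT orientations. Another annotated H2-K1 start, whose window is not shown, puts the NF-kB core 125 bases upstream.
H2-K1: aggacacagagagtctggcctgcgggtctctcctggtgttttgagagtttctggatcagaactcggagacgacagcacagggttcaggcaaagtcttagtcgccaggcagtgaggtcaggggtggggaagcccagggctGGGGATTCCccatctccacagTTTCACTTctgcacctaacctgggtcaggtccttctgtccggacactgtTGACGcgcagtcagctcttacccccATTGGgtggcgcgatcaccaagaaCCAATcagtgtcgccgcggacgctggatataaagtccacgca
H2-D1: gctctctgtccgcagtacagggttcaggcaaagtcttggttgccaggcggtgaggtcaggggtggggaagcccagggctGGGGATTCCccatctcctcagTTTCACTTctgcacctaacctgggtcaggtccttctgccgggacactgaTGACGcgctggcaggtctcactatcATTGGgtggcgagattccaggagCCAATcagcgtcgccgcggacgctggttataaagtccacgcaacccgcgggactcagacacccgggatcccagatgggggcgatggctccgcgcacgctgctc

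Among all 32851 start regions of this length in the table, 37.4% held CCAAT, 23.9% the IRF core, 20.8% TGACG and 5.82% the NF-kB core. A match describes the letters and not the binding of a factor.

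H2-Aa, H2-Ab1, H2-Eb1, H2-K1, H2-D1, Tap1 and Tapbp all lie on chromosome 17, in the MHC, between 33919478 (start of Tapbp) and 35267497 (end of H2-D1) on GRCm38.p6. H2-Ab1 (34263227 to 34269418), H2-Aa (34282744 to 34287823) and H2-Eb1 (34305867 to 34316674) are neighbours there. B2m (chromosome 2, 122147687 to 122153082) lies outside the MHC, as does Cd74. The B2m gene overlaps Patl2 in the annotation, and how overlapping reads were counted is not given in the sources used here. Of all stretches of 50 bases in the longest coding transcript, 8.79% in H2-K1 and 14.3% in H2-D1 were also present in transcripts of other genes, chiefly H2-D1 and H2-Q1 for H2-K1 and H2-Q genes for H2-D1, so the values of both heavy chains are uncertain to the extent that such reads were split. For H2-Aa, H2-Ab1, H2-Eb1, Cd74 and B2m that share was 0.

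Per kilobase of the longest coding transcript, B2m was the most abundant member. Its level was 7.79 ± 0.36 log2 CPM per kb (SD over the 5 separate libraries) and its lowest library lay above every library of every other member. H2-Ab1 (5.39 ± 0.60), Cd74 (5.31 ± 0.36) and H2-K1 (5.16 ± 0.38) followed, with ranges that overlapped. H2-Aa (4.41 ± 0.64), H2-D1 (4.38 ± 0.38) and H2-Eb1 (3.60 ± 0.61) came next, and their ranges overlapped as well. Tapbp (2.31 ± 0.28) overlapped H2-Eb1 at its highest library, and Tap1 was the lowest (0.40 ± 0.58). All these errors are SD with n = 5.

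No antigen presentation gene passed the threshold. With limma, 0 of 9 had an adjusted p under 0.05 in the labelled comparison, where 0% of all 11768 genes did, and 0 of 9 in the 4-library comparison, where 0.187% did. Voom on recovered reads also called 0 of 9 in both. In the labelled comparison 0 of 9 had an unadjusted p under 0.05. The 4-library comparison had 3, the class II chains, all with higher means in mDrp1HET, where 13.3% of all genes were higher at that level. Both mDrp1HET libraries lay above both Control libraries for 5 of 9 members, against 38.6% of all genes. With median centring the same 5 members did, against 28.7% of all genes. The median 4-library log2 fold change was 0.53 over the 9 members and 0.20 over all genes. Median centring took the median of all genes to 0.04 and lowered the 4-library value of every member as well. The class II genes then had 0.80 (H2-Aa), 0.65 (H2-Ab1), 0.69 (H2-Eb1) and 0.11 (Cd74). The class I genes had 0.36 (H2-K1), 0.39 (H2-D1) and -0.12 (B2m), and the loading genes 0.22 (Tap1) and -0.18 (Tapbp).

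H2-Aa encodes the alpha chain of the I-A class II molecule. Its level was 4.71 and 3.57 log2 CPM in Control replicates 2 and 3 and at 5.20 and 5.01 in mDrp1HET replicates 1 and 2, with 4.44 in the shared library. The groups did not overlap, and the Control libraries differed from each other by more than Control replicate 2 differed from either mDrp1HET library. The 4-library log2 fold change was 0.97 (95% interval from 0.24 to 1.70, with an SE of 0.33 and a limma adjusted p of 0.213), and 3.41% of all genes had a higher one. The labelled value was 0.65 (limma adjusted p = 0.753, SE 0.31).

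H2-Ab1, the beta chain that pairs with H2-Aa, was 5.84 and 4.73 log2 CPM in Control replicates 2 and 3, 6.36 and 5.84 in mDrp1HET replicates 1 and 2 and 5.55 in the shared library. Control replicate 2 and mDrp1HET replicate 2 had nearly the same level, 57.2 CPM each. The 4-library log2 fold change was 0.82 (95% interval from 0.09 to 1.55, with an SE of 0.33 and a limma adjusted p of 0.261). H2-Eb1, the beta chain of the I-E molecule, was 4.53 and 3.30 in Control, 4.85 and 4.69 in mDrp1HET and 4.31 in the shared library, in the same replicate order. Its 4-library log2 fold change was 0.86 (95% interval from 0.08 to 1.63, with an SE of 0.35 and a limma adjusted p of 0.267). In mice of the b haplotype the alpha chain partner of H2-Eb1 is not made, and the haplotype of these mice is not given in the sources used here.

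Cd74, the invariant chain, had a smaller fold change than the class II chains, a difference that was not tested in this fit. It was 6.12 and 5.18 log2 CPM in Control replicates 2 and 3, 5.90 and 5.94 in mDrp1HET replicates 1 and 2 and 5.87 in the shared library. Both mDrp1HET values lay between the Control values. The 4-library log2 fold change was 0.27 (95% interval from -0.36 to 0.90, with an SE of 0.29 and a limma adjusted p of 0.659), and relative to the median of all genes it was 0.07.

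**Figure D1:**
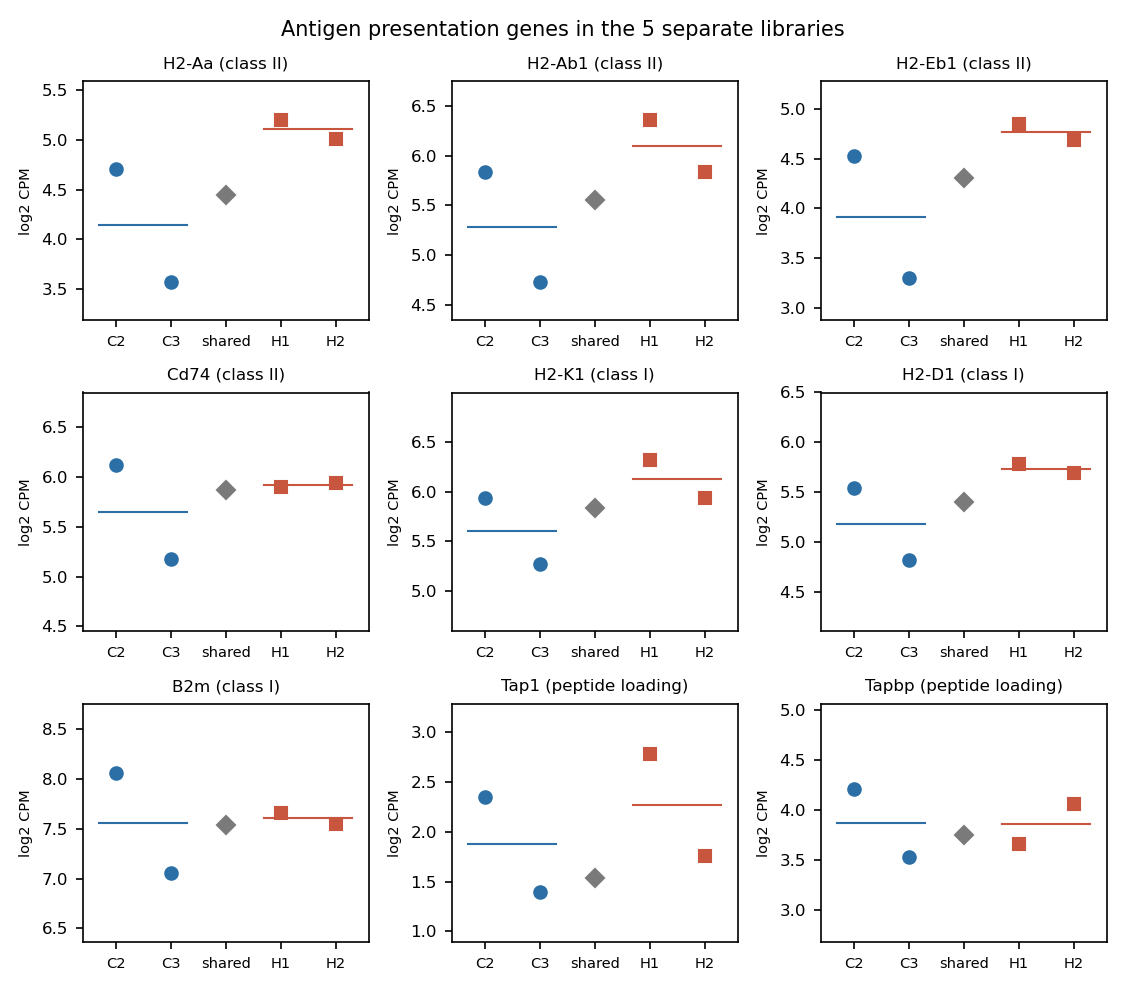
Log2 CPM of each antigen presentation gene (vertical axis, the same span of log2 units in every panel) in Control replicates 2 and 3 (C2 and C3, blue circles), the shared library (grey diamond) and mDrp1HET replicates 1 and 2 (H1 and H2, red squares), with lines at the mean of each pair. C3 is the lowest library in all 9 panels, and C2 lies at or above at least 1 mDrp1HET library in those of Cd74, B2m, Tap1 and Tapbp.

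The class I heavy chains H2-K1 and H2-D1 had nearly equal fold changes. H2-K1 was 5.94 and 5.27 log2 CPM in Control replicates 2 and 3, 6.32 and 5.94 in mDrp1HET replicates 1 and 2 and 5.83 in the shared library. Control replicate 2 (61.2 CPM) and mDrp1HET replicate 2 (61.5 CPM) were almost level, so the groups did not overlap by a very small margin. H2-D1 was 5.54 and 4.82 in Control, 5.78 and 5.69 in mDrp1HET and 5.40 in the shared library. The 4-library log2 fold changes were 0.53 (95% interval from -0.05 to 1.10, with an SE of 0.26 and a limma adjusted p of 0.337) for H2-K1 and 0.55 (95% interval from -0.02 to 1.13, with an SE of 0.26 and a limma adjusted p of 0.319) for H2-D1.

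B2m, the light chain that all class I molecules share, had a fold change near 0. It was 8.06 and 7.06 log2 CPM in Control replicates 2 and 3, 7.66 and 7.55 in mDrp1HET replicates 1 and 2 and 7.54 in the shared library. The Control libraries, which differed 2-fold from each other, enclosed both mDrp1HET libraries. The 4-library log2 fold change was 0.05 (95% interval from -0.58 to 0.68, with an SE of 0.29 and a limma adjusted p of 0.949). Its sign turned with median centring (-0.12), quantile normalization (-0.05) and removal of the GC trend (-0.20).

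The peptide loading genes showed no separation of the groups. Tap1, a subunit of the peptide transporter, was 2.35 and 1.40 log2 CPM in Control replicates 2 and 3, 2.78 and 1.76 in mDrp1HET replicates 1 and 2 and 1.54 in the shared library. It rested on 35 reads in mDrp1HET replicate 2 (exact Poisson 95% interval 24.4 to 48.7, counting error only) and on 108 in mDrp1HET replicate 1. Its 4-library log2 fold change was 0.39 (95% interval from -0.58 to 1.35, with an SE of 0.44 and a limma adjusted p of 0.684). Tapbp was 4.21 and 3.53 in Control, 3.66 and 4.06 in mDrp1HET and 3.75 in the shared library. Its 4-library log2 fold change was -0.01 (95% interval from -0.67 to 0.65, with an SE of 0.30 and a limma adjusted p of 0.99), and the sign turned with removal of the GC trend (0.18).

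**Figure D2:**
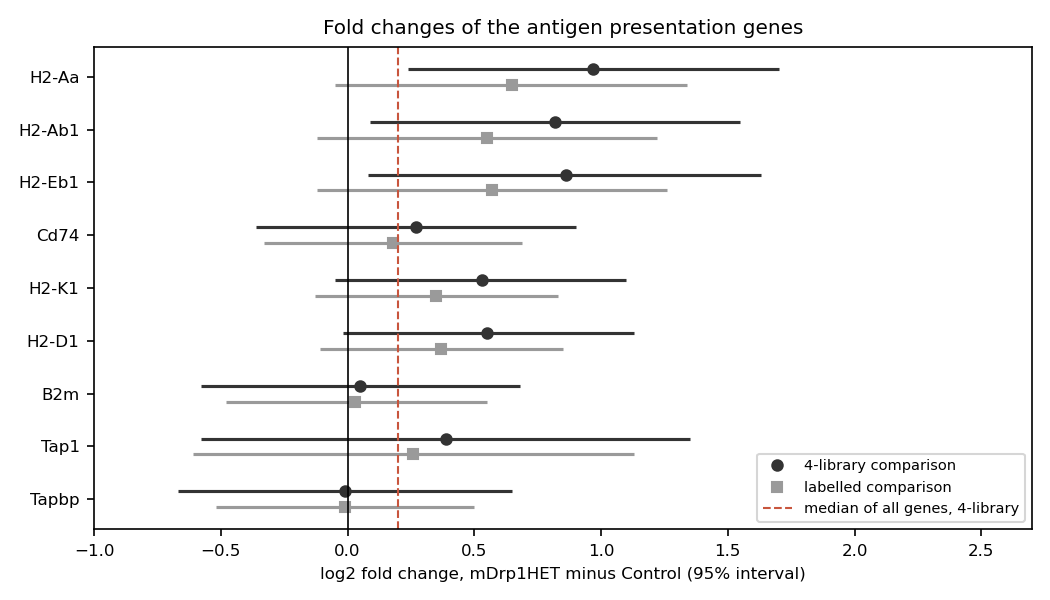
Log2 fold change of mDrp1HET over Control with its 95% interval for each antigen presentation gene (limma), in the 4-library comparison (black circles) and the labelled comparison (grey squares), with the 4-library median of all genes (0.20) as a dashed line. The 4-library intervals of H2-Aa, H2-Ab1 and H2-Eb1 lie above 0 before adjustment and those of the other 6 members include 0.

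Control replicate 3 was the lowest of the 5 separate libraries for all 9 members. Among all genes 35.2% were lowest there, and after median centring 8 of the 9 members and 18.2% of all genes. Class II genes averaged 5.30 log2 CPM in Control replicate 2, 4.19 in Control replicate 3, 5.58 and 5.37 in mDrp1HET replicates 1 and 2 and 5.04 in the shared library. From Control replicate 2 to Control replicate 3 the member genes differed by -0.67 (H2-K1) to -1.24 (H2-Eb1), against a median of -0.19 over all genes.

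The fold changes of the class II chains rested on that library. Without Control replicate 3, the 4-library log2 fold changes were 0.40 for H2-Aa, 0.26 for H2-Ab1, 0.24 for H2-Eb1, 0.19 for both H2-K1 and H2-D1, -0.19 for Cd74, -0.45 for B2m, -0.09 for Tap1 and -0.35 for Tapbp. Without Control replicate 2 they were 1.54, 1.37 and 1.47 for H2-Aa, H2-Ab1 and H2-Eb1, where the median of all genes was 0.30. The others were 0.86 for H2-K1, 0.92 for H2-D1, 0.74 for Cd74, 0.55 for B2m, 0.86 for Tap1 and 0.33 for Tapbp. In each of these fits the lone Control library was assumed to vary like the mDrp1HET libraries.

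Differences between partner genes within a library, which do not depend on scaling to the library total, did not overlap between the groups in 5 of the 7 pairs computed. The pairs were chosen after the values were seen. H2-Aa minus Cd74 was -1.41 and -1.61 on the log2 CPM scale in Control replicates 2 and 3, -0.70 and -0.93 in mDrp1HET replicates 1 and 2 and -1.43 in the shared library. H2-Ab1 minus Cd74 was -0.28 and -0.46 in Control, 0.46 and -0.11 in mDrp1HET and -0.32 in the shared library. H2-Eb1 minus Cd74 was -1.58 and -1.88 in Control, -1.05 and -1.25 in mDrp1HET and -1.56 in the shared library.

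For each of these 3 chains both mDrp1HET differences lay above both Control differences, and 8.71% of all genes stood that way to Cd74. The group means differed by 0.70 for H2-Aa, 0.55 for H2-Ab1 and 0.58 for H2-Eb1, which all share Cd74 as the reference. The shared library lay within the Control range for H2-Aa and H2-Ab1 and just above it for H2-Eb1. With 2 libraries a group the smallest two-sided exact permutation p is 0.333, and these differences were not tested in another way.

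The heavy chains stood to B2m in a like way. H2-K1 minus B2m was -2.12 and -1.79 in Control replicates 2 and 3, -1.35 and -1.61 in mDrp1HET replicates 1 and 2 and -1.71 in the shared library. H2-D1 minus B2m was -2.51 and -2.24 in Control, -1.88 and -1.86 in mDrp1HET and -2.14 in the shared library. Both heavy chains had mDrp1HET differences above the Control ones, as did 18.4% of all genes against B2m, and the shared library lay between the groups. The other pairs overlapped between the groups. H2-K1 minus H2-D1 was 0.39 and 0.45 in Control and 0.53 and 0.25 in mDrp1HET, and H2-Aa minus H2-Ab1 was -1.13 and -1.16 against -1.16 and -0.82. The transcripts differ in GC content, at 51% for H2-Aa, 57.3% for H2-Ab1, 51.8% for H2-Eb1, 56.6% for Cd74, 56.3% for H2-K1, 55.9% for H2-D1 and 41.2% for B2m. With each library's GC trend removed, an alternative added after the data were seen, the 4-library log2 fold changes were 1.01, 1.01, 0.93 and 0.45 for H2-Aa, H2-Ab1, H2-Eb1 and Cd74, and 0.70, 0.71 and -0.20 for H2-K1, H2-D1 and B2m.

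**Figure D3:**
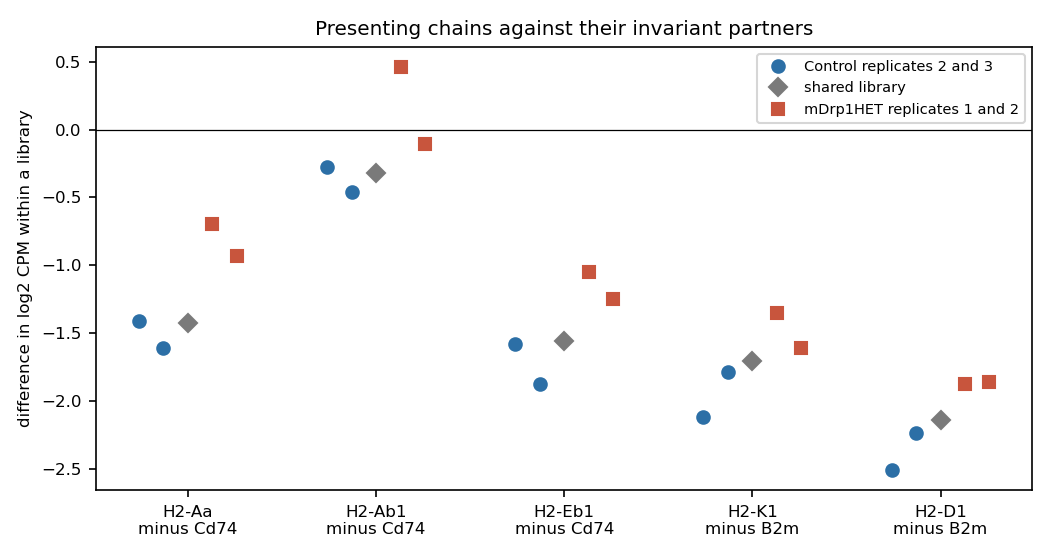
Difference in log2 CPM within a library (vertical axis) between each class II chain and Cd74 and between each class I heavy chain and B2m, in Control replicates 2 and 3 (blue circles), the shared library (grey diamonds) and mDrp1HET replicates 1 and 2 (red squares). In all 5 pairs shown the mDrp1HET points lie above the Control points, by group means of 0.48 (H2-K1 minus B2m) to 0.70 (H2-Aa minus Cd74).

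Of the other class I pathway genes, 19 of 25 were found among the listed genes. With limma 0 of 19 passed in either comparison, 0 had an unadjusted p under 0.05 in the 4-library comparison, and their median 4-library log2 fold change was 0.32, against 0.20 over all genes. The smallest p values belonged to the proteasome activator subunit Psme2 (0.70, SE 0.34), the nonclassical class I gene H2-T10 (0.79, SE 0.40), the immunoproteasome subunit Psmb8 (0.79, SE 0.40) and Pdia3, a disulfide isomerase of the loading complex (0.45, SE 0.25). Both mDrp1HET libraries lay above both Control libraries for 7 of the 19, against 38.6% of all genes.

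Of the other class II pathway genes, 10 of 18 were found, and 0 passed with limma in either comparison. Their median 4-library log2 fold change was 0.01, against 0.20 over all genes. Both mDrp1HET libraries lay above both Control libraries for 4 of the 10, against 38.6% of all genes, and below them for 2. At an unadjusted limma p under 0.05, 1 of 10 was higher and 0 lower in the 4-library comparison, where 13.3% of all genes were higher. That gene was Marchf1, a ubiquitin ligase that takes class II molecules off the surface of dendritic and B cells. Its level was 1.78 and 0.79 log2 CPM in Control replicates 2 and 3, 2.69 and 2.75 in mDrp1HET replicates 1 and 2 and 1.91 in the shared library, a 4-library log2 fold change of 1.44 (limma adjusted p = 0.143, SE 0.39). Ctss, the cathepsin that trims the invariant chain, had 0.74 (SE 0.36), and Ciita, the coactivator that switches on class II genes, 0.36 (SE 0.36). Ifi30, a lysosomal thiol reductase that unfolds antigens, went the other way (-0.73, SE 0.34), with both mDrp1HET libraries below both Control libraries.

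Genes of interferon-gamma signalling, the pathway that induces MHC genes, had a median 4-library log2 fold change of 0.34 over the 21 of 23 found, and 0 passed with limma in either comparison. At an unadjusted p under 0.05, 4 were higher and 0 lower in the 4-library comparison, where 13.3% of all genes were higher at that level. They were the GTPase gene Gbp6 (0.78, SE 0.25), the receptor chain genes Ifngr2 (0.63, SE 0.23) and Ifngr1 (0.70, SE 0.27), and the chemokine gene Cxcl9 (1.08, SE 0.45). Apart from these lists, 5 genes were picked only because their pattern over the 5 separate libraries was most like that of the class I mean. By root mean square difference in log2 units they were Ifnar2, a subunit of the type I interferon receptor (0.0328), Ilf2 (0.0367), the transcription factor gene Irf8 (0.0388), Cyth4 (0.0455) and Pim3 (0.0466). The median over all genes was 0.309. For the class II mean the closest were 1600012H06Rik (0.0359), Npl (0.0383), 1110059G10Rik (0.0595), Ntf3 (0.063) and Dnal4 (0.0672), where the median over all genes was 0.434.

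Markers of resident leukocytes also differed between the libraries. Over 4 of 6 general leukocyte markers (Ptprc, Tyrobp, Laptm5 and Cd53) the summed level was 14.5 to 27.6 CPM in Control replicates 2 and 3, 31.6 to 37.7 in mDrp1HET replicates 1 and 2 and 23.6 in the shared library, and Control replicate 3 was the lowest library for all 4. Over 11 of 14 macrophage markers it was 214 to 341 CPM in Control, 393 to 439 in mDrp1HET and 266 in the shared library. Both mDrp1HET libraries lay above both Control libraries for 3 of the 4 leukocyte and 7 of the 11 macrophage markers, against 38.6% of all genes. H2-Aa minus the mean of the leukocyte markers was 2.15 and 1.92 in Control, 2.20 and 2.22 in mDrp1HET and 2.06 in the shared library. Over these 5 libraries, the span from lowest to highest was 0.30 for that difference and 1.63 for H2-Aa itself, and the difference had the narrower span for 8 of the 9 members. The exception was Tapbp, whose difference was 1.64 and 1.89 in Control, 0.66 and 1.26 in mDrp1HET and 1.38 in the shared library. That is a span of 1.23 against 0.68 for Tapbp itself. How many of all genes would show a narrower span was not computed, so the count of 8 has no background to be read against. H2-Aa minus the mean of the macrophage markers varied more, at 0.35 and -0.16 in Control, 0.51 and 0.47 in mDrp1HET and 0.41 in the shared library. Cd74 minus the mean of the leukocyte markers was 3.56 and 3.54 in Control and 2.90 and 3.15 in mDrp1HET. B2m minus the mean of the leukocyte markers was 5.50 and 5.41 against 4.66 and 4.76. The median 4-library log2 fold change was 0.91 over the leukocyte markers and 0.20 over all genes. A gene near the median of all genes would therefore also tend to be lower against these markers in mDrp1HET. The share of all genes that were lower in this way was not computed, so these differences are not particular to Cd74 or B2m. The part of leukocyte content in these values was not tested, and in bulk tissue fewer cells of a type and less RNA per cell cannot be told apart.

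Among the leukocyte and macrophage markers, 0 passed with limma in either comparison. Ptprc, the pan-leukocyte phosphatase CD45, had a 4-library log2 fold change of 1.06 (SE 0.36), and Cd53, Tyrobp and Laptm5 had 0.82, 0.99 and 0.30. The macrophage receptor genes Cd163 (0.74, SE 0.21) and Lyve1 (0.84, SE 0.26) and the complement genes C1qa (0.99, SE 0.28) and C1qc (1.0, SE 0.36) had unadjusted limma p values under 0.05. They were 4 of the 11 macrophage markers found, and 13.3% of all genes were higher at that level. Of the dendritic cell markers 3 of 8 were found, Cd209a (1.14, SE 0.44), Zbtb46 (0.47, SE 0.35) and Clec9a (0.15, SE 0.38), at a summed 8.18 to 9.79 CPM in Control and 11.1 to 15.4 in mDrp1HET. Both mDrp1HET libraries lay above both Control libraries for 2 of these 3, against 38.6% of all genes. Of the B cell markers 1 of 7 was found, the immunoglobulin heavy chain gene Ighm (-0.08, SE 0.29), at 232 and 235 CPM in Control and 315 and 155 in mDrp1HET, and of the T and NK cell markers 0 of 8.

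Markers of other cell types in the muscle piece also differed between the libraries. All 8 fibro-adipogenic markers were found, at a summed 1208 to 1811 CPM in Control and 2339 to 2359 in mDrp1HET, led by Smoc2 (1.05, SE 0.23), Pdgfra (0.90, SE 0.22), Clec3b (1.04, SE 0.27) and Col3a1 (0.85, SE 0.22). Both mDrp1HET libraries lay above both Control libraries for 6 of the 8, against 38.6% of all genes. At an unadjusted limma p under 0.05, 5 of the 8 were higher, against 13.3% of all genes. The 10 myofibre markers summed to 165901 and 166683 CPM in Control, 125205 and 121970 in mDrp1HET and 177346 in the shared library. These sums weigh abundant genes most, and Myh4 alone was 16.27 and 16.44 log2 CPM in Control and 15.31 and 15.62 in mDrp1HET. At an unadjusted limma p under 0.05, Ryr1 (-1.56, SE 0.38), Myh1 (-1.04, SE 0.37) and Myh4 (-0.89, SE 0.35) were lower and Mylpf (0.56, SE 0.25) higher. Of all 11768 genes, 384 were lower and 1565 higher at that level. The mean log2 CPM of the same 10 markers overlapped between the groups, at 13.17 and 12.79 in Control and 12.81 and 12.53 in mDrp1HET, and their median log2 fold change was -0.15. Over the 8 endothelial markers the sums, 282 to 440 CPM in Control and 308 to 397 in mDrp1HET, overlapped. Their median 4-library log2 fold change was -0.08, with Kdr at -0.95 (SE 0.31), Cd34 at 0.46, Tie1 at -0.43 and Tek at 0.30. Cd34 and Tek were the only 2 of the 8 above 0, where 69.6% of all genes were. With limma 0 of the genes in these 3 lists passed in either comparison.

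**Figure D4:**
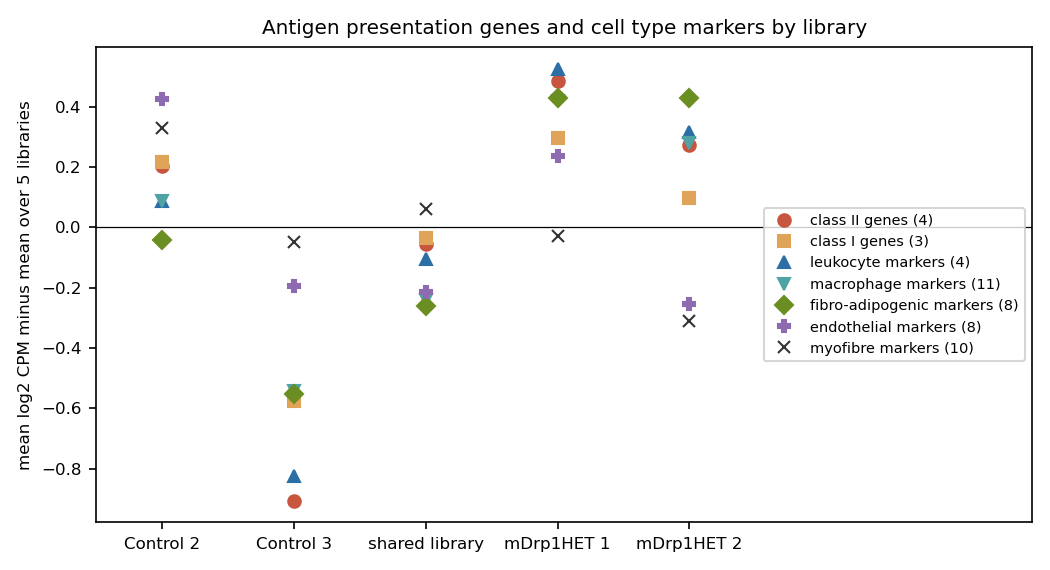
Mean log2 CPM of the class II genes, the class I genes and 5 sets of cell type markers in each separate library, minus the mean over the 5 libraries (vertical axis), with the number of genes in brackets. In Control replicate 3 the class II genes (4.19 log2 CPM), class I genes (5.72), leukocyte markers (1.65) and macrophage markers (3.73) are at their lowest. In mDrp1HET replicate 1 these sets are at their highest (5.58, 6.59, 3.0 and 4.69), which depends on the scaling for the class I and class II genes. After median centring, not shown, class II genes average 5.34 in both mDrp1HET replicates. Class I genes are then highest in Control replicate 2 (6.43, against 6.35 in mDrp1HET replicate 1). The fibro-adipogenic markers are also lowest in Control replicate 3 (6.07).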

How the data were processed

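Total RNA from frozen quadriceps, accepted at an integrity number above 7, was depleted of ribosomal RNA and made into stranded libraries, per the labels' protocols. The authors deposited log2 CPM for 11768 genes in 6 columns and a p-value per gene, per the file headers; the deposited p-value column was not used. Per the submitters' processing notes, the build was GRCm38 and FastQC and DESeq2 1.30.0 were used; aligner and counter are not given in the sources used here. Every linear column summed to the same total, and whole reads were recovered for 100% of values (tolerance 0.01 reads). Of the symbols, 17 turned into dates were restored through Entrez numbers, Marchf1 among them, and 68 rows without a symbol were kept. Other sample columns numbered 0.

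Both comparisons were fitted by limma 3.58.1 (R 4.3.3), using an intensity trend, two-sided, Benjamini-Hochberg adjusted over all 11768 genes, threshold 0.05. Member genes and lists were chosen with earlier results of these data known. The text names all 9 members, Dnm1l, up to 4 genes per list with the smallest 4-library p, and the 5 genes most alike to each class mean. The 11 lists were described by counts and medians. The alternatives were median centring, quantile normalization, log2(CPM + 1), minimum mean log2 CPM of 1 and 3, no intensity trend, voom on recovered reads, leaving out each library and, added after the data were seen, removal of the GC trend (transcript GC known for 97.9% of genes). The fits were also run on simulated counts with the same spread setting for every gene and no shifts between libraries of a group. The real libraries do shift, so that run does not speak for error rates here. Start regions, transcripts and coordinates come from RefSeq GRCm38.p6 and GENCODE M21, which share the build.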

Additional observations from a re-analysis of the deposited data

How the results depend on the processing

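In the labelled comparison 0 genes were called, and 0 antigen presentation genes, under every alternative that kept all 6 columns. Leaving out 1 column gave 0 to 2 genes and 0 members. In the 4-library comparison 22 genes were called, and 0 with median centring or without the intensity trend, 1 with quantile normalization, 9 with a mean log2 CPM of at least 3 and 51 with voom. Leaving out 1 library gave 77 to 325 genes and 0 to 3 members, the class II chains without Control replicate 2. Such fits have 1 library in a group and little to estimate the spread from.

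B2m turned with median centring (-0.08 labelled, -0.12 in 4 libraries), quantile normalization (-0.04, -0.05) and GC trend removal (-0.13, -0.20). Tapbp turned with GC trend removal (0.12, 0.18). Dnm1l turned with the same 3 settings (labelled -0.04, -0.01 and -0.10, 4-library -0.06, -0.01 and -0.15) and Clec9a with the first 2 (labelled -0.01 and -0.11, 4-library -0.02 and -0.16). The cause was not tested.

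Leaving out 1 library turned the sign of these log2 fold changes in the labelled comparison, whose ranges over the leave-outs were Dnm1l -0.13 to 0.18, Clec9a -0.08 to 0.30, Tapbp -0.16 to 0.18, Cd74 -0.09 to 0.38, B2m -0.21 to 0.29, Laptm5 -0.04 to 0.37, Tap1 -0.12 to 0.55, Tek -0.01 to 0.40 and Ighm -0.28 to 0.23. Leaving out 1 library turned the sign of these log2 fold changes in the 4-library comparison, whose ranges over the leave-outs were Tapbp -0.35 to 0.33, Cd74 -0.19 to 0.74, B2m -0.45 to 0.55, Tap1 -0.12 to 0.90, Laptm5 -0.11 to 0.70, Dnm1l -0.18 to 0.40, Clec9a -0.01 to 0.30 and Ighm -0.59 to 0.43.

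No paired analysis was possible because the replicate numbers were given in accession order and no label ties a number to a shared litter, batch or day. Depth limits Tap1 most, with 35 to 188 reads per column.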
